A study of Homo sapiens with 4 samples.

Results

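The genes described here control the passage of cells through G1, the phase of the cell cycle before DNA is copied. They are the 3 D-type cyclins (CCND1, CCND2 and CCND3), the kinases CDK4 and CDK6 that these cyclins activate, 4 genes for inhibitors of cyclin-dependent kinases (CDKN1A, CDKN1B, CDKN2A and CDKN2B), and RB1. The 10 genes were chosen by symbol, and each had 1 row among the 44591 rows of the deposited files, all of them among the 19233 protein-coding rows. RNA-seq was performed on total RNA of 4 replicates of untreated HaCaT, a spontaneously immortalized line of human epidermal keratinocytes. There was no treated or second group, so levels were compared between genes and between replicates of a single condition. The labels give 12% fetal bovine serum in the medium, while the paper's methods give 10%.

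In cycling cells, mitogens induce the D cyclins, which bind CDK4 or CDK6, and the resulting kinases phosphorylate the retinoblastoma protein encoded by RB1. Phosphorylated RB protein releases the E2F transcription factors, which then induce genes for DNA replication. INK4 inhibitors, encoded by CDKN2A and CDKN2B, bind CDK4 and CDK6 directly and keep D cyclins away from them. CIP/KIP inhibitors, p21 from CDKN1A and p27 from CDKN1B, bind complexes of cyclin and kinase and block CDK2 in particular. In epidermis, exit of basal keratinocytes from the cycle accompanies differentiation, and p21, p27 and their relatives are part of that exit.

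The total count was 73082279 in replicate 1 and 17056035 to 19745170 in the other 3, and the counts of the 10 genes ranged from 176 to 28147. Levels are given as TPM, the count per base of gene length scaled to 1000000 over the protein-coding rows of each library, so that genes of different length can be compared. Replicate 1 stood apart. Protein-coding genes took 76.1% of its counts against 95.3% to 96.4% in the others, and across genes its Spearman correlation with the others was 0.754 to 0.780, against 0.944 to 0.967 among replicates 2 to 4. Levels of the 10 genes are therefore given in each replicate, and some results also without replicate 1. Of 8 keratinocyte markers, including KRT5, KRT14 and TP63, 8 had a TPM above 1 in every replicate. Summed TPM was 9228 to 13909 for these markers, 5.20 to 9.70 for 7 fibroblast markers, 3.74 to 9.12 for 5 melanocyte markers, 3.40 to 8.92 for 4 leukocyte markers and 0.859 to 2.36 for 3 endothelial markers. TYR and PECAM1 had no count in any library. The labels do not say whether the replicates came from separate cultures, although the paper calls them biological, so the spread between them may be partly technical.

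CDKN2A and CDKN2B lie side by side on chromosome 9 and are similar in sequence, which bears on how far reads can be assigned to either gene. Of the different runs of 50 bases in their protein-coding transcripts (GENCODE release 29), 0.951% of those of CDKN2A and 0.769% of those of CDKN2B were found in both genes. No run of 50 bases was shared between CDK4 and CDK6, between any 2 of the D cyclins, or between CDKN1A and CDKN1B. The longest exact match was 16 bases for CDK4 and CDK6, 15 to 23 bases among the D cyclins, and 12 bases for CDKN1A and CDKN1B. The counting program, and what it did with reads of more than 1 match, are not given in the sources used here.

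All 10 genes had a TPM above 1 in every replicate, as did 56.7% of the protein-coding rows. CCND1 was the highest of the 10 and CDK4 the next in 4 of 4 replicates. By mean TPM the order continued with CDKN1A, CDKN2A, CDKN1B, CCND3, RB1, CCND2, CDK6 and CDKN2B. Among the 9 pairs of neighbours in this order, 3 differed within libraries by more than the SD over replicates, and the same 3 kept their order in 4 of 4 replicates. These were CCND1 above CDK4, with a log2 difference of 1.09 ± 0.43 (SD, n = 4), CDK4 above CDKN1A, with 0.78 ± 0.67 (SD, n = 4), and CDK6 above CDKN2B, with 0.83 ± 0.39 (SD, n = 4). Neighbours from CDKN1A down to CDK6 did not differ by more than their spread.

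**Figure D1:**
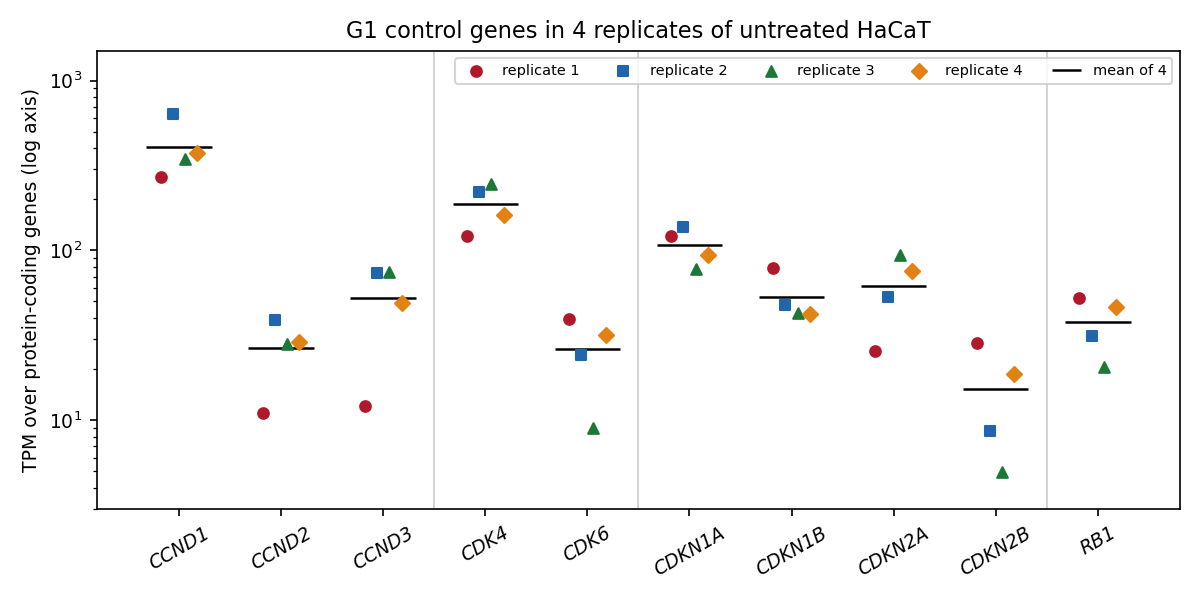
TPM over protein-coding genes (log axis) of the 10 genes, with 1 point for each replicate and a line at the mean of 4. CCND1 sits between 270 and 633 TPM and CDKN2B between 4.92 and 28.5 TPM, and replicate 1 lies lowest for each of the 3 D cyclins, CDK4 and CDKN2A.

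CCND1 encodes cyclin D1, the D cyclin most associated with mitogen and adhesion signals in epithelia (hg19 chromosome 11, 69455873 to 69469242, plus strand). Its TPM was 270, 633, 347 and 373 in the 4 replicates in turn, with a mean of 406 ± 158 (SD, n = 4) and 451 ± 159 (SD, n = 3) without replicate 1. Replicate 2 was highest, and without it the range was 0.46 on the log2(TPM + 1) scale. This level exceeded that of 97.3% of the 12165 protein-coding genes with a mean TPM above 1.

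CCND3, for cyclin D3 (hg19 chromosome 6, 41902671 to 42016632, minus strand), had 12.1, 73.4, 74.7 and 49.0 TPM in replicates 1 to 4. Replicate 1 was at 0.185 times the mean of the other 3, the lowest such ratio of the 10 genes. CCND2, for cyclin D2 (hg19 chromosome 12, 4382902 to 4414522, plus strand), had 11.1, 38.9, 27.9 and 28.7 TPM and was also lowest in replicate 1. Without that replicate the values of CCND2 spanned 1.39-fold and those of CCND3 1.52-fold.

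Within each library CCND1 far exceeded both relatives. Its share of the summed TPM of the 3 D cyclins was 92.1%, 84.9%, 77.2% and 82.7% in replicates 1 to 4. CCND1 exceeded CCND2 by 3.93 ± 0.41 (SD, n = 4) on the log2(TPM + 1) scale, and CCND3 by 3.14 ± 0.90 (SD, n = 4), in each case in 4 of 4 replicates. An exact permutation test over sign flips (two-sided) gave p = 0.125 for each, the smallest that 4 replicates allow, and 0.167 after Benjamini-Hochberg adjustment over the 8 pairs tested, so no pair could reach 0.05. Per kilobase, CCND1 had 22.2 times the reads of CCND3 in replicate 1 (95% Clopper-Pearson interval 20.8 to 23.8) and 4.64 times in replicate 3 (4.43 to 4.86). No use of molecular identifiers is stated in the sources used here, and such intervals account for the counting of reads and nothing else. The ratio thus differed between replicates by much more than counting error. CCND3 exceeded CCND2 by 0.79 ± 0.52 (SD, n = 4; exact permutation test, p = 0.125), but without length correction the difference was -0.22 ± 0.51 (SD, n = 4). When the merged annotated exons gave the lengths, it was 0.08 ± 0.51 (SD, n = 4), and with the exons of protein-coding transcripts 0.35 ± 0.51 (SD, n = 4), each within the spread.

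CDK4 and CDK6 encode the partner kinases of the D cyclins, which phosphorylate the RB protein in G1. CDK4 (hg19 chromosome 12, 58141510 to 58146230, minus strand) had 121, 220, 246 and 163 TPM in replicates 1 to 4, averaging 187 ± 56.2 (SD, n = 4). CDK6 (hg19 chromosome 7, 92234235 to 92465941, minus strand) had 39.4, 24.1, 8.99 and 31.8 TPM, a mean of 26.1 ± 13.0 (SD, n = 4). The kinases differed in where they were extreme: CDK4 was lowest and CDK6 highest in replicate 1, while CDK4 was highest and CDK6 lowest in replicate 3.

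CDK4 was higher than CDK6 in 4 of 4 replicates, by 2.92 ± 1.30 (SD, n = 4; exact permutation test, p = 0.125, adjusted p = 0.167). Reads per kilobase of CDK4 were 3.07 times those of CDK6 in replicate 1 (95% Clopper-Pearson interval 2.98 to 3.17), 9.13 times in replicate 2 (8.61 to 9.68), 27.3 times in replicate 3 (25.5 to 29.3) and 5.12 times in replicate 4 (4.85 to 5.41). No interval overlapped another. CDK6 has a deposited length of 11762 bases against 2002 for CDK4, so the comparison leans on the length: without length correction the difference was 0.43 ± 1.34 (SD, n = 4), within the spread. TSPAN31 overlaps CDK4 on the opposite strand, and its count was 26.5% of that of CDK4 in replicate 1 and 5.36% to 13.3% in the others. The part of such shared positions in the CDK4 values was not tested.

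**Figure D2:**
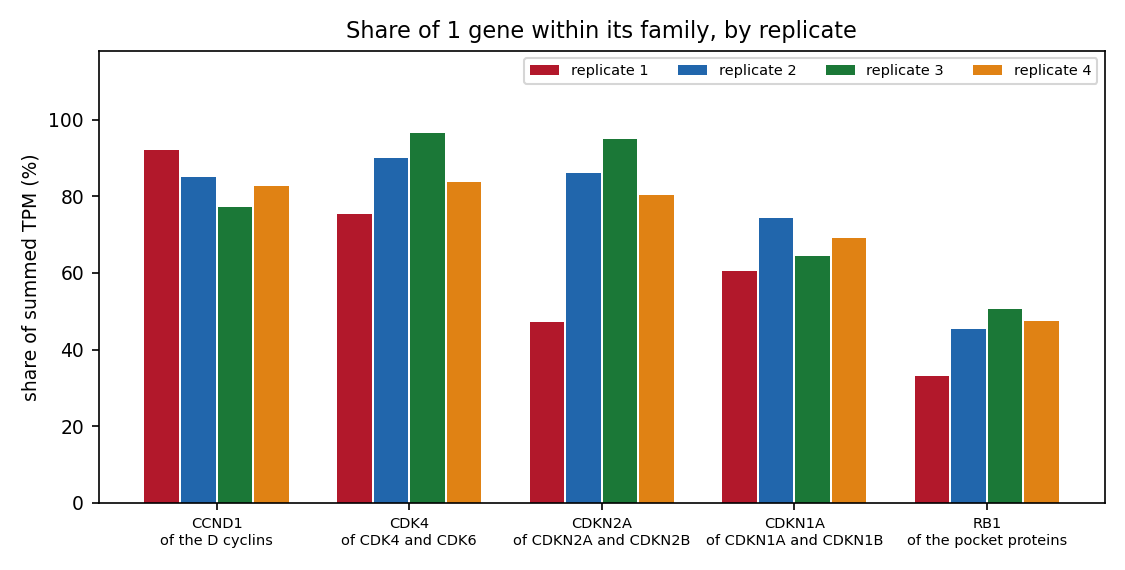
Share of the summed TPM (%) that 1 gene takes within its family, with 1 bar for each replicate. CCND1 takes 77.2% to 92.1% of the D cyclins, CDK4 takes 75.4% to 96.5% of the kinase pair, and CDKN2A takes 47.2% in replicate 1 against 80.2% to 95.0% in the other 3.

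Of the CIP/KIP genes, CDKN1A encodes p21, an inhibitor that is induced when keratinocytes leave the cycle. CDKN1A (hg19 chromosome 6, 36644237 to 36655116, plus strand) had 121, 137, 77.5 and 93.8 TPM in replicates 1 to 4, averaging 107 ± 26.7 (SD, n = 4). It had the smallest range of the 10 genes, 1.77-fold between replicates 3 and 2, and stood at percentile 86.8 of the expressed protein-coding genes. With TPM over all rows of the files its range was 1.68 on the log2(TPM + 1) scale, above 2-fold and wider than the 0.76 of CDKN1B.

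CDKN1B encodes p27, which holds CDK2 inactive in resting cells and is regulated largely through degradation of the protein (hg19 chromosome 12, 12870204 to 12875317, plus strand). It had 79.0 TPM in replicate 1 and 47.6, 42.7 and 42.1 in replicates 2 to 4. Replicates 2 to 4 lay within 1.13-fold, the narrowest of the 10 genes, and replicate 1 was 1.79 times their mean. CDKN1A exceeded CDKN1B in 4 of 4 replicates, by 1.02 ± 0.39 (SD, n = 4; exact permutation test, p = 0.125, adjusted p = 0.167). SKP2, whose product marks p27 for degradation, had 54.9, 43.1, 33.6 and 34.4 TPM, and its cofactor CKS1B had 277, 336, 454 and 313 TPM.

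CDKN2A gives rise to p16INK4A and, from another first exon and reading frame, to p14ARF, an inhibitor of MDM2. A row per gene counts both transcripts together, so the values below cannot be split between them. CDKN2A (hg19 chromosome 9, 21967751 to 21994490, minus strand) had 25.4, 53.1, 93.8 and 75.5 TPM in replicates 1 to 4, averaging 62.0 ± 29.5 (SD, n = 4). The lowest value was again that of replicate 1.

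CDKN2B encodes p15INK4B, an INK4 inhibitor known to be induced by TGF-beta in epithelial cells (hg19 chromosome 9, 22002902 to 22009312, minus strand). It had 28.5, 8.65, 4.92 and 18.6 TPM from 2759, 229, 176 and 552 counts, a mean of 15.2 ± 10.6 (SD, n = 4). A count of 176 has an exact 95% Poisson interval of 151 to 204, so the 3.78-fold range over replicates 2 to 4 is wider than counting error. CDKN2B-AS1, the antisense transcript of the same locus, had 344, 24, 22 and 36 counts, 6.52% to 12.5% of those of CDKN2B. The sources used here do not say whether counting used strand, so reads of the 2 genes may not be separable.

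The INK4 neighbours were ordered differently between libraries. Reads per kilobase of CDKN2A were 0.893 times those of CDKN2B in replicate 1 (95% Clopper-Pearson interval 0.835 to 0.954). It was 6.15 times in replicate 2 (5.29 to 7.16), 19.1 in replicate 3 (16.3 to 22.4) and 4.06 in replicate 4 (3.67 to 4.50). On the log2(TPM + 1) scale the difference was 2.07 ± 1.72 (SD, n = 4), higher for CDKN2A in 3 of 4 replicates (exact permutation test, p = 0.25, adjusted p = 0.286). Without replicate 1 it was 2.82 ± 1.06 (SD, n = 3), and 3 replicates cannot give an exact p below 0.25. The comparison leans on the length. CDKN2A has a deposited length of 2078 bases but 4329 in merged annotated exons, against 3984 and 4058 for CDKN2B. With the merged exons the difference over all replicates was 1.11 ± 1.76 (SD, n = 4), within the spread. It was also within the spread without length correction and with the exons of protein-coding transcripts.

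**Figure D3:**
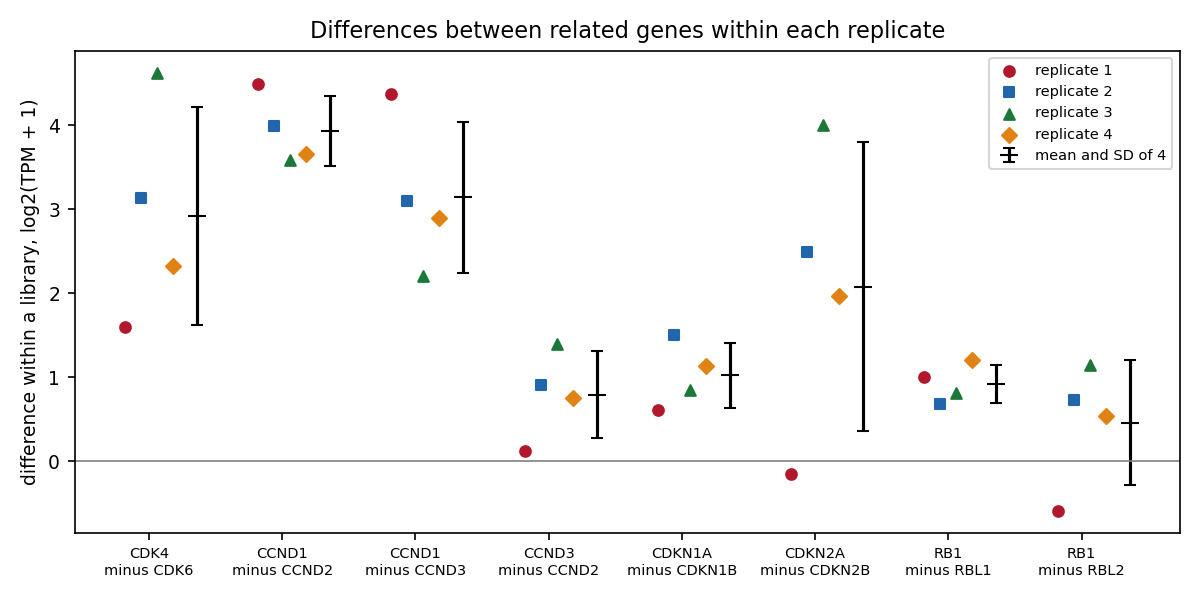
Difference between related genes within a library, in log2(TPM + 1), with 1 point for each replicate and the mean with SD of 4 beside it. All pairs but 2 lie above 0 in every replicate, while CDKN2A minus CDKN2B and RB1 minus RBL2 lie below 0 in replicate 1, at -0.16 and -0.59.

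RB1, for the retinoblastoma protein (hg19 chromosome 13, 48877883 to 49056026, plus strand), had 52.6, 31.5, 20.5 and 46.1 TPM in replicates 1 to 4, averaging 37.7 ± 14.5 (SD, n = 4). LPAR6 lies within the same interval on the opposite strand, with a count that was 36.3% of that of RB1 in replicate 1 and 5.80% to 8.81% in the others. RBL1 and RBL2 encode the related pocket proteins p107 and p130, of which p130 is the form known to bind E2F4 in resting cells. RB1 exceeded RBL1 in 4 of 4 replicates, by 0.92 ± 0.23 (SD, n = 4; exact permutation test, p = 0.125, adjusted p = 0.167).

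RBL2 had 79.9, 18.6, 8.71 and 31.4 TPM, and in replicate 1 it was above RB1. The difference between RB1 and RBL2 was 0.46 ± 0.74 (SD, n = 4; exact permutation test, p = 0.375), within the spread between replicates, and 0.81 ± 0.31 (SD, n = 3) without replicate 1. RB1 took 33.2% of the summed TPM of the 3 pocket proteins in replicate 1 and 45.4% to 50.6% of it in replicates 2 to 4.

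The sum over CDKN1A, CDKN1B, CDKN2A and CDKN2B was 254, 247, 219 and 230 TPM in replicates 1 to 4. Its parts differed more, with 200, 185, 120 and 136 TPM for the CIP/KIP genes and 53.9, 61.8, 98.7 and 94.1 TPM for the INK4 genes, so that replicate 3 was lowest in the first and highest in the second. With TPM over all rows of the files the sum of the 4 genes was 78.5, 219, 192 and 214, far lower in replicate 1. The CIP/KIP sum was then lowest in replicate 1, at 61.8 against 105 to 164. The INK4 sum was then highest in replicate 4, at 87.5, with 86.3 in replicate 3. With edgeR's TMM factors CDKN1A and CDKN1B were both lowest in replicate 4, so the place of replicate 3 depended on the scaling. Over protein-coding rows, the sum over CDK4, CDK6 and the 3 D cyclins had 454, 990, 704 and 645 TPM. Its ratio to the inhibitors was 1.79 in replicate 1 and 2.80 to 4.02 in the other 3. Such sums are of transcripts and follow their most abundant genes: CCND1 and CDK4 in the sum of kinases and cyclins, and CDKN1A, or CDKN2A in replicate 3, in that of the inhibitors.

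Most members varied over 2-fold between replicates, as did most genes. On the log2(TPM + 1) scale 8 of the 10 had a range above 1 over the 4 replicates, against 59.1% of the 12165 expressed protein-coding genes, and the median range was 1.52 for the members and 1.16 for all. Over replicates 2 to 4 the count was 3 of 10, against 22.7% of all genes, with medians of 0.81 and 0.63. CDKN2B, CDK6 and RB1 were those 3, with ranges of 1.73, 1.71 and 1.13, and all 3 were lowest in replicate 3. Without replicate 3, and with replicate 1 kept, the range was 0.69 for CDK6 and 0.72 for RB1, while that of CDKN2B was 1.61, still over 2-fold. CDKN1A and CDKN1B were the members below 1 over all 4, at 0.81 and 0.89, and CDK4, at 1.01, was just above. With TPM over all rows of the files, 9 of 10 members passed 2-fold, against 82% of all expressed genes. Which members passed over replicates 2 to 4 also depended on the scaling. With edgeR's TMM factors RB1 had 29.1, 24.2 and 42.6 there, within 2-fold. CDKN2A had 49.1, 110 and 69.7, over 2-fold and highest in replicate 3. Upper-quartile scaling gave the same exchange of RB1 for CDKN2A.

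**Figure D4:**
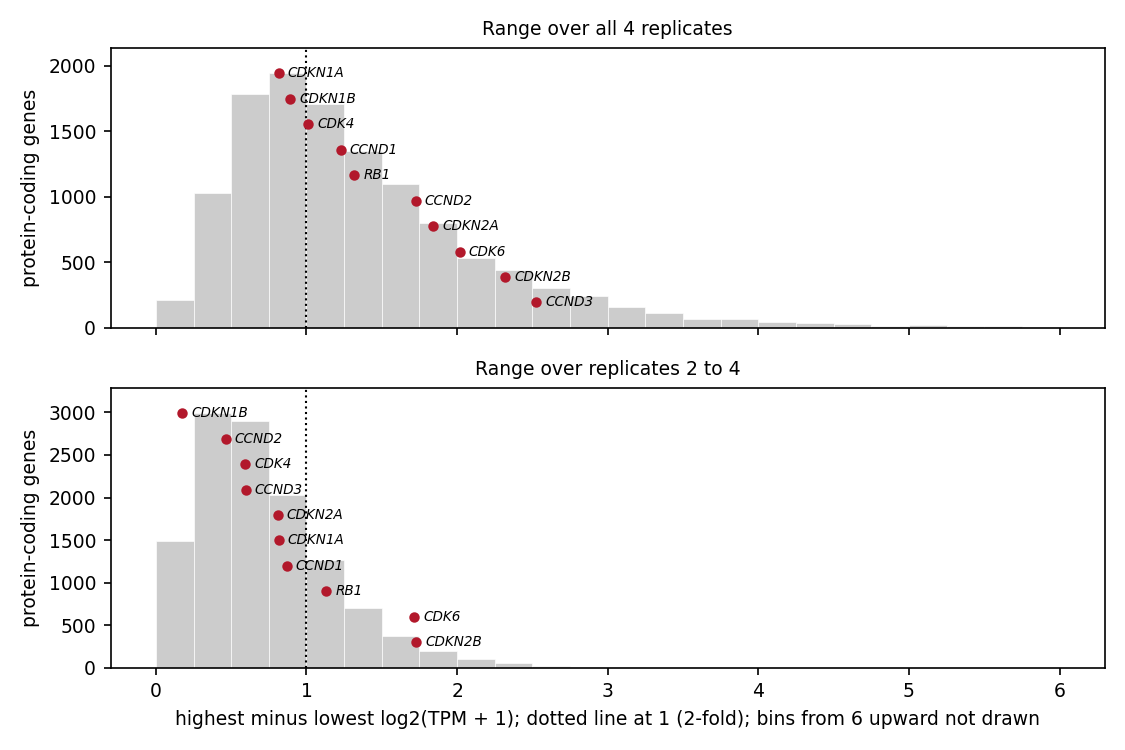
Number of protein-coding genes with a mean TPM above 1 (grey bars) by the difference of the highest and lowest log2(TPM + 1), over all 4 replicates (top) and over replicates 2 to 4 (bottom), with the 10 genes as red points whose height has no meaning. The dotted line marks 2-fold, which 8 of the 10 pass in the top panel and 3 in the bottom panel.

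In replicate 1 the members divided into those at their lowest and those at their highest. CCND1, CCND2, CCND3, CDK4 and CDKN2A were lowest there, 5 of 10 against 37.5% of all expressed genes, and CDKN1B, CDKN2B, CDK6 and RB1 were highest, 4 of 10 against 40.2%. In replicate 3, 4 of 10 members were lowest (CDKN1A, CDKN2B, CDK6 and RB1), against 40.2% of all genes. These shares are close to those of genes in general. With TPM over all rows of the files, in which other RNA classes lower every protein-coding gene of replicate 1 (a median shift of -1.56 on the log2 scale), 8 of 10 were lowest in replicate 1 against 80.7% of all expressed genes, 0 were highest there against 4.3%, and 2 were lowest in replicate 3 against 16.2%. With edgeR's TMM factors or upper-quartile scaling the counts for replicate 1 were 5 and 4 again, against 39.1% to 39.3% and 38.9% to 39.4% of all genes. The count lowest in replicate 3 was then 3, against 26.1% and 27.4%, since CDKN1A was lowest in replicate 4 under both.

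Base composition moved with this division. GC content of the longest protein-coding transcript was 45.5% to 61.4% in the 5 members lowest in replicate 1 and 37.3% to 47.7% in the 4 highest there. Across 11889 expressed protein-coding genes the Spearman correlation of GC content with the log2 difference of replicate 1 from the mean of the others was -0.51, a description over genes of the same 4 libraries. CDKN1A, with 58.1% GC and a level in replicate 1 of 1.17 times the mean of the others, and CCND2, with 45.5% GC and 0.348 times, did not follow that order. Genes of keratinocyte differentiation moved with replicate 1 as well. KRT1 had 124 TPM there and 0.219 to 0.545 in the others, KRT10 had 229 against 31.3 to 52.4, and IVL, for involucrin, had 202 against 4.06 to 14.9. The part of base composition, of the RNA classes kept and of differentiation in the values of replicate 1 was not tested.

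Of 27 other genes of the G1 machinery, listed by role, 26 had a TPM above 1 in every replicate. The range was above 2-fold for 13 of the 27 over 4 replicates and for 3 of 27 over replicates 2 to 4, against 59.1% and 22.7% of all expressed genes. Their mean TPM ran from 1.84 for CDKN1C to 345 for CKS1B, with a median of 20.5.

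Cyclin E and its kinase CDK2, which act after the D cyclins, were all present. CDK2 had 63.6, 104, 86.8 and 81.8 TPM in replicates 1 to 4. CCNE1, for cyclin E1, had 3.45 TPM in replicate 1 and 8.10 to 10.5 in the others, while CCNE2, for cyclin E2, was highest in replicate 1, at 25.6 against 9.25 to 18.1. CDC25A, whose phosphatase activates CDK2, had 9.48, 25.4, 33.8 and 15.2 TPM. Of this group, 3 of 4 genes were lowest in replicate 1, as were 37.5% of all expressed genes. These places are for TPM over protein-coding rows. With TPM over all rows CCNE2 too was lowest in replicate 1, as were 80.7% of all expressed genes.

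CDKN1C, for the third CIP/KIP inhibitor p57, was the gene not above 1 TPM throughout, with 262 counts (5.59 TPM) in replicate 1 and 2, 15 and 11 counts in replicates 2 to 4. A count of 3 or fewer was treated as not shown, so CDKN1C was not detectable in replicate 2 at its depth. CDKN2C, for p18INK4C, had 17.5, 5.95, 11.4 and 22.6 TPM, and CDKN2D, for p19INK4D, had 10.8, 9.83, 16.6 and 19.1. In each library both were below CDKN1A and CDKN1B.

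Among the E2F and DP factors, through which the RB family acts, E2F4 and TFDP1 were the most abundant. E2F4, a repressor that partners p130, had 88.2, 177, 140 and 148 TPM. TFDP1, the common dimer partner of E2F proteins, had 108, 202, 203 and 206 TPM, so that replicates 2 to 4 were almost level on this scaling. With edgeR's TMM factors the median log2 shift of expressed genes was 0.22 in replicate 3 and -0.11 in replicates 2 and 4, so this levelness depends on the scaling. E2F1, an activator released from the RB protein, had 14.6, 32.1, 42.3 and 35.6 TPM. Over protein-coding rows, the summed TPM of the 10 factors came to 297 in replicate 1, below the 467 to 525 of the others. In that scaling 6 of the 10 were lowest and 3 highest in replicate 1, against 37.5% and 40.2% of all expressed genes.

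The CDK-activating kinase, formed of CDK7, CCNH and MNAT1, phosphorylates the activation loop of CDK4, CDK6 and CDK2. For TPM over protein-coding rows its 3 genes were all highest in replicate 1, as were 40.2% of all expressed genes. Their sum was 292 TPM there and 155 to 178 in the others. This order depended on the scaling. TPM over all rows lowered replicate 1 most, by a median log2 shift of -1.56, and the sum was then lowest there. On that scaling 4.3% of all expressed genes were highest in replicate 1. FBXW7, for the ubiquitin ligase subunit that recognizes cyclin E, had 19.8 TPM in replicate 1 and 2.23 to 4.69 in the others. AMBRA1, for the ligase adaptor that directs D cyclins to degradation, had 37.3, 35.0, 33.1 and 32.4 TPM, and CDC37, for the chaperone that loads CDK4, had 239, 266, 322 and 274. For TPM over protein-coding rows the ranges of AMBRA1 and CDC37 were 0.20 and 0.43 on the log2(TPM + 1) scale. Both ranges were wider with TPM over all rows, which lowered replicate 1 most. CDC37, like CDK4, was lowest in replicate 1 and highest in replicate 3.

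**Figure D5:**
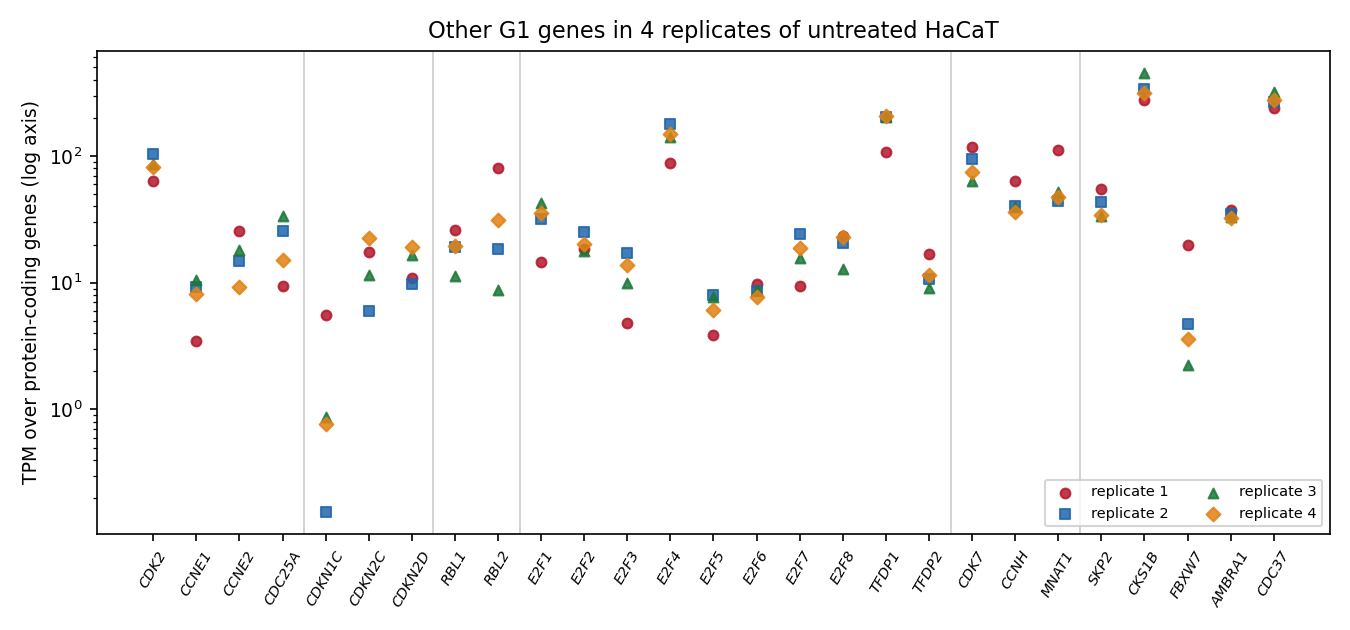
TPM over protein-coding genes (log axis) of 27 other G1 genes, with 1 point for each replicate and grey lines between roles (cyclin E and its kinase, other inhibitors, pocket proteins, E2F and DP factors, CDK-activating kinase, turnover). E2F4, TFDP1, CKS1B and CDC37 are among the most abundant, and CDKN1C is lowest, at 0.156 to 5.59 TPM.

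Genes of cycling cells were abundant in every library. PCNA, the sliding clamp of DNA replication, had 586, 531, 881 and 552 TPM, and CCNA2, for the S-phase cyclin A2, had 103, 59.4, 82.5 and 93.7. MKI67, the gene of the proliferation marker Ki-67, had 69.2, 142, 43.4 and 225 TPM, while TOP2A, a topoisomerase gene of S and G2 phase, had 621, 241, 96.2 and 403. These 2 markers were both lowest in replicate 3, but MKI67 was highest in replicate 4 and TOP2A in replicate 1. The other listed genes of cycling cells did not share that low. MCM2 had 144, 271, 341 and 251 TPM and was, like PCNA, highest in replicate 3. CCNB1 had 294, 191, 263 and 253 TPM and was, like CCNA2, lowest in replicate 2. In bulk RNA, a change in the share of cycling cells and a change in the level per cell cannot be told apart.

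The 3 genes with the profile most like each of CDKN1A, CDKN2A and CCND1 were found by the Euclidean distance between the 4 deviations of log2(TPM + 1) from the gene's mean. CDKN1A was nearest to CCDC84, HPDL and ZNF778 (0.06 to 0.09), and 84 of 12164 genes lay within 0.25. CDKN2A was nearest to HNRNPAB, LOC101927322 and FBL (0.04 to 0.12), with 10 genes within 0.25. CCND1 was nearest to KCNB2, DCST1 and FAM86B2 (0.06 to 0.08), with 51 genes within 0.25, although these 3 had a TPM of only 0.483 to 4.03. With 4 libraries such likeness rests on few values.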

How the data were processed

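RNA-seq of 4 untreated HaCaT replicates was analysed. The authors deposited, for each library, raw counts per gene with gene type, length and position. Beside the counts, the deposited values are RPKM in 2 libraries (replicates 1 and 2) and TPM in the other two, each over all rows. The submitters' processing notes name hg19, HISAT2, TopHat2, Bowtie2 and HISAT, with no role or order. The counting program, annotation, strandedness and selection of RNA are not given in the sources used here.

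TPM was recomputed in all 4 libraries from counts and deposited lengths over protein-coding rows. Values were compared on the log2(TPM + 1) scale, which understates the change of low genes. A mean TPM above 1 defined expressed genes. Differences between 8 pairs of related genes were taken within libraries and tested with a two-sided exact sign-flip permutation test. No test of differential expression was run, since there is 1 condition. GC content, exon lengths and shared runs of bases came from GENCODE release 29 (GRCh38), matched by symbol (97.7% of expressed protein-coding genes for GC). Every member was named, with other genes taken from lists by role. The members and lists were chosen with earlier results of these data known. Some genes and sequences are not reported here. The range calls were tested on simulated data, which did not hold the broad differences of replicate 1 from the others. The alternatives were a pseudocount of 0.1, no length correction, other gene lengths, values as deposited, other scalings, other detection limits and leaving out each replicate. The tools were R 4.3.3 with edgeR 4.0.16 (TMM factors only), and SciPy 1.17.1, pandas 2.3.3, NumPy 2.4.6 and matplotlib 3.10.9 under Python 3.11.15.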

Additional observations from a re-analysis of the deposited data

Results flagged for a closer look

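In 63 sets of 4 values, 1 for each replicate, 10 held a replicate whose gap to the nearest of the others was a larger part of the whole range than Dixon's 95% limit for 4 values allows. Chance flags about 1 in 20 sets, or 3.15, but the sets are not independent. The genes were also listed with earlier results of these data known, so the count of 10 is no test against that rate. Of the 10, 9 were in replicate 1. Among the 10 members this held for CDKN1B, highest in replicate 1, with a gap of 0.851 of its range. This gap was taken for TPM over protein-coding rows and depended on the scaling. With TPM over all rows CDKN1B was instead lowest in replicate 1, at 24.5 against 37.4 to 42.2. With edgeR's TMM factors it was highest there, at 77.1 against 38.9 to 50.3, with a gap below the limit.

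Replicate 1 was also highest for CDKN1C, with a gap of 0.869, CCNH (0.849), MNAT1 (0.887) and FBXW7 (0.860), and lowest for TFDP1 (0.953). For the differentiation genes KRT1, KRT10 and IVL, it was highest with gaps of 0.997, 0.894 and 0.945. Replicate 3 was highest for PCNA, with a gap of 0.844. Each of these gaps, too, was taken for TPM over protein-coding rows. TPM over all rows moved replicate 1 by a median log2 shift of -1.56, and edgeR's TMM factors moved replicate 3 by 0.22. Apart from CDKN1B, whether a flag stays above the limit on those scalings was not tested.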

How the results depend on the processing

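Of 72 alternative values of the 8 differences between related genes, 71 kept their direction, and the exception was CCND3 minus CCND2 without length correction, at -0.22. With other exon lengths that difference shrank to 0.08 and 0.35, within its spread. No exact permutation test could reach 0.05 in any setting. Leaving out each replicate in turn gave 3 to 8 of the 10 genes over a 2-fold range, with 3 without replicate 1 and 5 without replicate 3, and 22.7% to 54.6% of all expressed genes, since a range over fewer libraries can only be the same or smaller. With TPM over all rows, 9 of 10 members passed 2-fold, against 82% of all expressed genes, and CDKN1A, at 1.68, was no longer the narrowest. All 10 members passed each detection limit. The set of gene lengths used for the scaling moved mean levels by more than the SD in 6 of 10 members. With the union of annotated exons, CCND1 was at 659 TPM, CDKN1A at 169, CDKN1B at 85.9, CDK6 at 45.4, CCND2 at 44.7 and CDKN2B at 26.9. These 6 genes are themselves longer in that union, as CCND1 with 4830 against 4289 bases, which alone would lower their TPM. TPM is scaled over the lengths of all genes, so a level rises where the gene's own length grows less than those of other genes. CDKN2A, with 4329 against 2078 bases, instead had 55.0 TPM against 62.0. An added length chosen after seeing the data, the exons of protein-coding transcripts, put CDKN1A at 151 TPM. No paired analysis was possible because there is only 1 group, so that replicate numbers join no samples; the differences between genes were taken within libraries. Depth limited CDKN1C in replicate 2 and, of the members, most of all CDKN2B in replicate 3, from 176 counts.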
